A study of Prunus dulcis with 36 samples.

Results

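MYB39 (unigene TRINITY_DN26519_c2_g1) and TRINITY_DN21330_c0_g1, whose product carries a Myb-like domain, were followed through the early development of normal and abnormal almond fruits. They are 2 of the 8676 unigenes listed in the deposited columns. Both were taken by their unigene IDs, and the prefix TRINITY is left out below. The study assembled more unigenes than are listed, so shares and places among listed unigenes do not extend to all unigenes. Whether the listed ones are richer in changed unigenes than the rest was not tested. Of the 8676 listed unigenes, 3099 were above 0 in all 12 groups, and 3283 to 4244 were at 0 in a given group. Shares, places, percentiles and medians over all listed unigenes include those at 0. The name MYB39 comes from a best match to the Arabidopsis protein, and the second unigene is known only by its domain. In that study both were selected from its differentially expressed genes for RT-qPCR, so their differences between fruit types are given as a description. The fruits came from the almond cultivar 'ZhiPi', with no treatment named in the labels, and were picked 12, 17, 22, 27, 32 and 37 days after flowering. Abnormal fruits were atrophied fruits in diapause, judged likely to drop, and they were taken beside normally growing ones on a shared branch. This gave 12 groups with 3 replicates each. Fruits were chopped and pooled within a replicate, so the tissues of the fruit cannot be told apart in the values, nor can fewer cells of a type and less RNA per cell. The values are the authors' mean normalized FPKM (fragments counted per length of transcript and per size of the library) of each group, with no value per replicate. No spread, test or P-value therefore accompanies any difference, and neighbouring levels in an order of groups cannot be separated from each other. The number of reads behind a value is unknown.

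MYB proteins are transcription factors that bind DNA through repeats of a helical domain held together by regularly spaced tryptophans. In plants most of them carry a pair of such repeats and control phenylpropanoid metabolism, cell fate and responses to stress, whereas many proteins with a single Myb-like domain act in the circadian clock or in development. In Arabidopsis, MYB39 is known as an activator of suberin synthesis in the root endodermis, and the study relates it to flavonoid synthesis in strawberry.

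The study gives a forward RT-qPCR primer for each of the unigenes. The primers were not compared with the sequence of any unigene, and whether either also matches other unigenes was not tested. The forward primers are written 5′ to 3′ and no base is set in capitals.
MYB39 forward primer: acattcagaaacacgggcat
Myb-like forward primer: atggacagaagaggagca
They have 20 and 18 bases, respectively. Positions in the almond genome were not analysed here. The unigene IDs come from the study's own assembly, so they cannot be looked up in the RefSeq gene table of almond.

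MYB39 was high in abnormal fruits on days 12 and 17 and low in the other 10 groups. From day 12 to day 37, normal fruits had 0.580, 0.159, 0.907, 3.46, 0.801 and 3.69 FPKM. In abnormal fruits the values were 13.4, 24.3, 1.11, 4.44, 2.07 and 4.78 FPKM at the same stages. The abnormal value was above the normal one at 6 of 6 stages, and the highest normal value lay below both early abnormal ones. Abnormal fruits on day 17 came first among the 12 groups and abnormal fruits on day 12 second, whereas normal fruits on days 12 and 17 took the last 2 places.

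**Figure D1:**
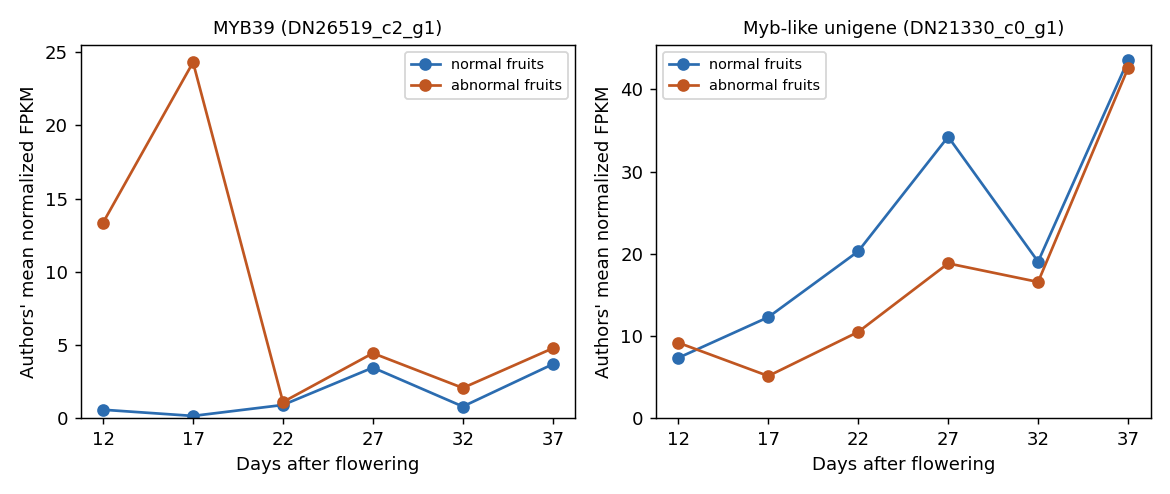
Level of MYB39 (left) and of the Myb-like unigene (right) in normal (blue) and abnormal (orange) fruits against days after flowering. Each point is the authors' mean normalized FPKM of 1 group, without error bars because values per replicate were not used; MYB39 reaches 24.3 FPKM in abnormal fruits on day 17, and the Myb-like unigene ends at 43.5 and 42.6 FPKM in the 2 fruit types.

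Differences between fruit types were taken as abnormal minus normal in log2(FPKM + 1), and a difference larger than 1 in size was counted as past the fold. For MYB39 the difference was 3.18 on day 12 and 4.45 on day 17. Of all listed unigenes, 13.8% were higher past the fold in abnormal fruits on day 12 and 18% on day 17. By size of the rise MYB39 stood at place 206 on day 12 and at place 144 on day 17 among the 8676 unigenes. As plain ratios of FPKM its levels differed 23.0-fold and 153-fold at these stages, and the latter rests on the 0.159 FPKM of normal fruits. On days 22, 27, 32 and 37 the log2 differences of MYB39 were 0.15, 0.29, 0.77 and 0.30, none of them past the fold. At these stages 7.09%, 8.7%, 9.58% and 6.77% of the listed unigenes were higher past it.

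A rise past the fold on both day 12 and day 17, with differences of 1 or less at the 4 later stages, was found for 331 of the listed unigenes (3.82%), MYB39 included. With rises larger than 3 at both early stages there were 48 unigenes, and 25 of these stayed within 1 later. MYB39 was among these 25. On day 32 its difference was 0.77 with the pseudocount of 1, but 1.27 with 0.1 and 1.37 without one. Its place among the 331 and the 25 thus depends on the pseudocount. The limit of 3 was set after its values were seen.

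**Figure D2:**
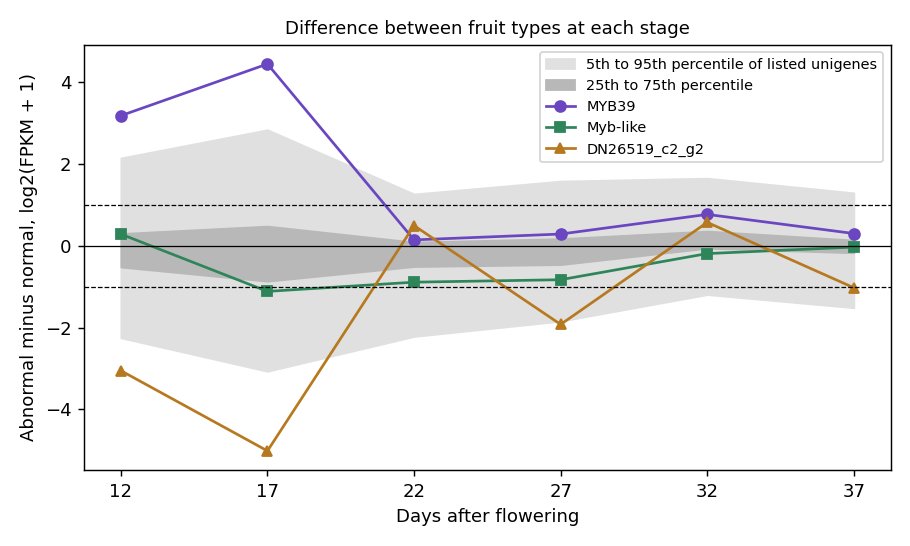
Abnormal minus normal in log2(FPKM + 1) at each stage for MYB39, the Myb-like unigene and DN26519_c2_g2, with grey bands for the 5th to 95th and the 25th to 75th percentile of the 8676 listed unigenes and dashed lines at a difference of 1. MYB39 lies above the wider band on days 12 and 17 (3.18 and 4.45), DN26519_c2_g2 below it on days 12, 17 and 27, and the Myb-like unigene inside it at all 6 stages.

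Along the stages, MYB39 in abnormal fruits fell by 3.58 on the log2 scale from day 17 to day 22, a 21.9-fold lower FPKM, and then rose by 1.37 to day 27. Of the listed unigenes, 13.1% fell past the fold in the first of these steps and 23.2% rose past it in the second. Its other steps there, the first (0.82) and the last 2 (−0.83 and 0.91), were not past the fold. In normal fruits the 3 steps after day 22 (1.22, −1.31 and 1.38) were past the fold, between levels of 0.801 and 3.69 FPKM, and 17.3% of the listed unigenes rose, 18.7% fell and 14.6% rose past it in these steps. With a pseudocount of 5 these 3 steps were 0.52, −0.54 and 0.58 and thus within the fold, as was the abnormal step to day 27 (0.63). The later part of the course thus alternated in both fruit types, with higher values on days 27 and 37 than on days 22 and 32. Over the 6 stages the Pearson r between the normal and the abnormal course of MYB39 was −0.39, where the median over listed unigenes was 0.34. These courses share the authors' normalization, and an r over 6 means is a description only.

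The assembly places MYB39 in a cluster of contigs, DN26519, of which 2 other unigenes are listed. The nearer one, DN26519_c2_g2, belongs to the same component (c2) as MYB39 and carries no name in the annotation used here. On days 12 and 17 its differences between fruit types were opposite to those of MYB39. In normal fruits DN26519_c2_g2 had 10.2, 31.4, 7.76, 14.5, 4.95 and 11.9 FPKM from day 12 to day 37. In abnormal fruits it had 0.354 FPKM on day 12, was listed at 0 on day 17, and had 11.4, 3.10, 7.86 and 5.36 FPKM from day 22 to day 37. Its log2 differences, in order of stage, were −3.05, −5.02, 0.50, −1.92, 0.57 and −1.03. It was lower past the fold in abnormal fruits at the 2 stages where MYB39 was higher, and on days 27 and 37 as well. On days 22 and 32 its differences had the same sign as those of MYB39. In normal fruits its last 3 steps (0.83, −1.39 and 1.12) went the same way as those of MYB39, but the earlier ones (1.53 and −1.89) did not. In abnormal fruits each of its steps (−0.44, 3.63, −1.59, 1.11 and −0.48) went opposite to that of MYB39. For comparison, 16.9% of the listed unigenes were lower past the fold on day 12 and 23.5% on day 17. Over the 12 groups the r between the 2 unigenes was −0.85 (Spearman's rho −0.62), the 29th lowest of the 5891 unigenes set against MYB39.

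Added together, the 2 unigenes of this component reached 10.8 (normal) and 13.7 FPKM (abnormal) on day 12, and 31.5 and 24.3 FPKM on day 17. The log2 differences of the sum were 0.32 and −0.36, so neither was past the fold, and on day 17 the sum was lower in abnormal fruits. MYB39 made up 5.36% of the sum in normal fruits on day 12 and 97.4% in abnormal fruits, and 0.502% and 100% on day 17. On day 22 its share was 10.5% and 8.90%. On day 27 the sum came to 18.0 (normal) and 7.54 FPKM (abnormal), a log2 difference of −1.15 against 0.29 for MYB39 alone, and on day 37 the difference was −0.58 against 0.30. How alike the sequences of the 2 unigenes are is not given in the sources used here, and whether reads of 1 transcript were divided between them was not tested. The level of MYB39 is uncertain to that extent. The study states that RT-qPCR bore out the pattern of its selected genes, MYB39 included. It describes MYB39 as strongly raised in abnormal fruits on day 12. Whether the primers tell the 2 unigenes apart was not tested.

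**Figure D3:**
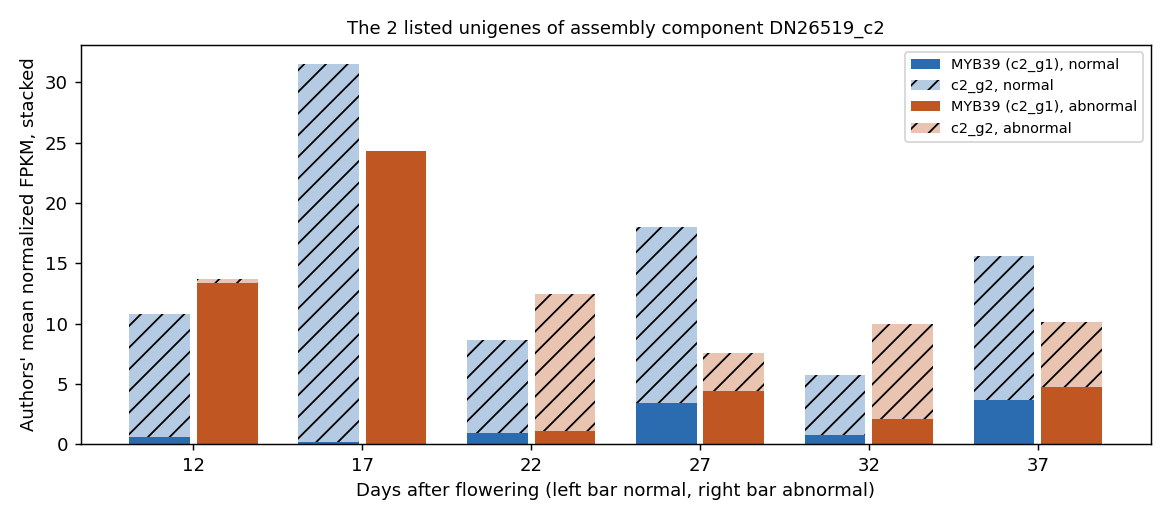
Stacked levels (mean normalized FPKM) of MYB39 (solid) and DN26519_c2_g2 (hatched) by days after flowering, with normal fruits in the left and abnormal fruits in the right bar of each pair. MYB39 is 5.36% of the bar in normal and 97.4% in abnormal fruits on day 12, whereas the bar heights there are 10.8 and 13.7 FPKM.

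The 8676 listed unigenes hold 764 pairs from the same component, in 593 components. Opposite differences past the fold between fruit types were found for 41 of these pairs on day 12 (5.37%) and for 59 on day 17 (7.72%). The same unigene of the pair was the higher one at both stages in 6 pairs (0.785%). With differences larger than 3 there was 1 such pair, that of MYB39 and DN26519_c2_g2. These counts were chosen after the values of the pair had been seen.

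The third listed unigene of the cluster, DN26519_c1_g1, comes from another component. Normal and abnormal fruits had 20.8 and 30.3 FPKM of it on day 12 and 28.5 and 56.4 FPKM on day 17, with log2 differences of 0.52 and 0.96. It was highest on day 27 in both fruit types, at 62.8 and 79.1 FPKM, and lay within the fold at 6 of 6 stages. Summed over all 3 unigenes of the cluster, the differences were 0.46 on day 12 and 0.42 on day 17.

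The Myb-like unigene took another course, with its highest values on day 37 in both fruit types and lower values in abnormal than in normal fruits from day 17 to day 37. Normal fruits, in order of stage, had 7.35, 12.3, 20.3, 34.2, 19.0 and 43.5 FPKM. In abnormal fruits the values were 9.18, 5.13, 10.5, 18.8, 16.6 and 42.6 FPKM. The abnormal value was the higher one on day 12 only. Normal and abnormal fruits on day 37 took the first 2 places among the 12 groups, and abnormal fruits on day 17 the last. The spread over stages was 5.92-fold in normal and 8.29-fold in abnormal fruits.

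The log2 difference of the Myb-like unigene was 0.29 on day 12 and −1.12 on day 17, where abnormal fruits had 0.418 times the normal FPKM. At the 4 later stages it was −0.89, −0.83, −0.19 and −0.03, where 14.6%, 12.1%, 6.32% and 7.76% of the listed unigenes were lower past the fold. Only the difference on day 17 was past the fold, at which stage 23.5% of listed unigenes were lower past the fold, and 22.1% of all listed unigenes had a lower value than it. This drop lay between the 5th (−3.07) and the 25th percentile (−0.87) of the listed unigenes. The difference was no longer past the fold with median-of-ratios scaling (−0.97), where the scaling of abnormal against normal fruits shifts by −0.18 on the log2 scale on day 17, or with a pseudocount of 5 (−0.77). A drop past the fold on day 17 alone was found for 757 of the listed unigenes (8.73%), the Myb-like unigene included.

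Between stages the Myb-like unigene rose past the fold from day 32 to day 37 in both fruit types, by 1.15 in normal and by 1.31 in abnormal fruits. The shares of listed unigenes that did so were 14.6% and 13%. From day 12 to day 17 it changed by 0.67 in normal and by −0.73 in abnormal fruits, neither past the fold. The next 2 steps, up to day 27, were upward in both fruit types, by 0.68 and 0.73 in normal and by 0.91 and 0.79 in abnormal fruits. Set against the normal course, the abnormal value on day 17 was nearest to normal fruits on day 12 (7.35 FPKM), and the one on day 22 to normal fruits on day 17 (12.3 FPKM). The abnormal value on day 27 (18.8 FPKM) was nearest to normal fruits on day 32 (19.0 FPKM), a later stage, with those on day 22 (20.3 FPKM) close behind. On day 17 the abnormal value (5.13 FPKM) lay below every normal one, so day 12 is only the lowest normal stage. Without a spread these matches cannot place abnormal fruits on the normal course. On days 12, 32 and 37 the nearest normal group was that of the same stage. The Pearson r between the normal and the abnormal course was 0.82 over the 6 stages.

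The courses of MYB39 and of the Myb-like unigene were unlike each other, with an r of −0.15 and a rho of 0.01 over the 12 groups. On the FPKM scale, which is per transcript length, the Myb-like unigene was the more abundant one in 10 of the 12 groups, from 4.24-fold in abnormal fruits on day 27 to 77.5-fold in normal fruits on day 17. The order was the other way round in abnormal fruits on day 12 (9.18 against 13.4 FPKM) and day 17 (5.13 against 24.3 FPKM).

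Other MYB unigenes could be found by name only in the parts of the study's annotation that were used here, which name 1322 unigenes, 753 of them listed. Of 6 unigenes annotated as MYB proteins or with a Myb-like domain, 3 are listed. All 3 were higher past the fold in abnormal fruits on day 17 and 2 on day 12, beside 18% and 13.8% of all listed unigenes. Their median differences were 1.45 and 1.81, where the median of all listed unigenes, those at 0 included, was 0. On days 22 and 37 none of the 3 was past the fold, and on days 27 and 32 there was 1 each that was higher, beside 8.7% and 9.58% of all listed unigenes. The names of 2 of the 3 come from the study's table of differentially expressed genes of these same samples, so they are no independent sample of the family. With a pseudocount of 5, 0 of them were past the fold on day 12 and 1 on day 17. DN12273_c0_g1, with a best match to rice Myb4, was listed at 0 in 6 of 6 normal groups while abnormal fruits had 2.51 and 16.9 FPKM on days 12 and 17. It was listed at 0 in the 4 later abnormal groups. The 2 abnormal groups where it was above 0 are those where MYB39 was highest. Its name comes from the study's differentially expressed genes, so this match follows in part from the choice. The share of listed unigenes at 0 in all normal groups was not computed. DN27205_c2_g1, matching RAX2 and RAX3, which control axillary meristems in Arabidopsis, had 4.72, 1.74 and 8.50 FPKM in abnormal fruits on days 12, 17 and 27. Its only normal value above 0 was 1.92 FPKM on day 27. DN13075_c0_g1, with a match to maize Zm38, peaked at 1.39 (normal) and 4.73 FPKM (abnormal), both on day 32.

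Among 7 unigenes named as flavonoid enzymes, 3 are listed, and 1 of them was past the fold on day 12 and on day 17 (0 on day 12 with a pseudocount of 5, and 2 and 3 with 0.1). In either direction 30.6% and 41.5% of all listed unigenes were past it on these days, so 1 of 3 is close to the share of all. Their median log2 differences were −0.13 and −0.64 at these stages, where the median of all listed unigenes, those at 0 included, was 0. Anthocyanidin reductase (DN12513_c0_g1), which makes epicatechin for condensed tannins, stood at 9.08 (normal) and 21.6 FPKM (abnormal) on day 12 and at 13.1 and 34.9 FPKM on day 17. Its log2 differences were 1.16 and 1.35, and from day 22 to day 37 they lay between −0.01 and 0.32. Like MYB39, it had its highest value in abnormal fruits on day 17, and its name too comes from the study's differentially expressed genes. Dihydroflavonol 4-reductase (DN13045_c0_g1), an earlier step of the same branch, was lower in abnormal fruits at 6 of 6 stages but never past the fold, with 1.32 against 0.247 FPKM on day 12 and 0.562 FPKM against a listed 0 on day 17. DN7008_c0_g1, matching leucoanthocyanidin dioxygenase, had 2.10 and 1.84 FPKM on day 12 and 0.938 FPKM against a listed 0 on day 17. Both of the enzymes listed at 0 there thus had their normal values below 1 FPKM.

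**Figure D4:**
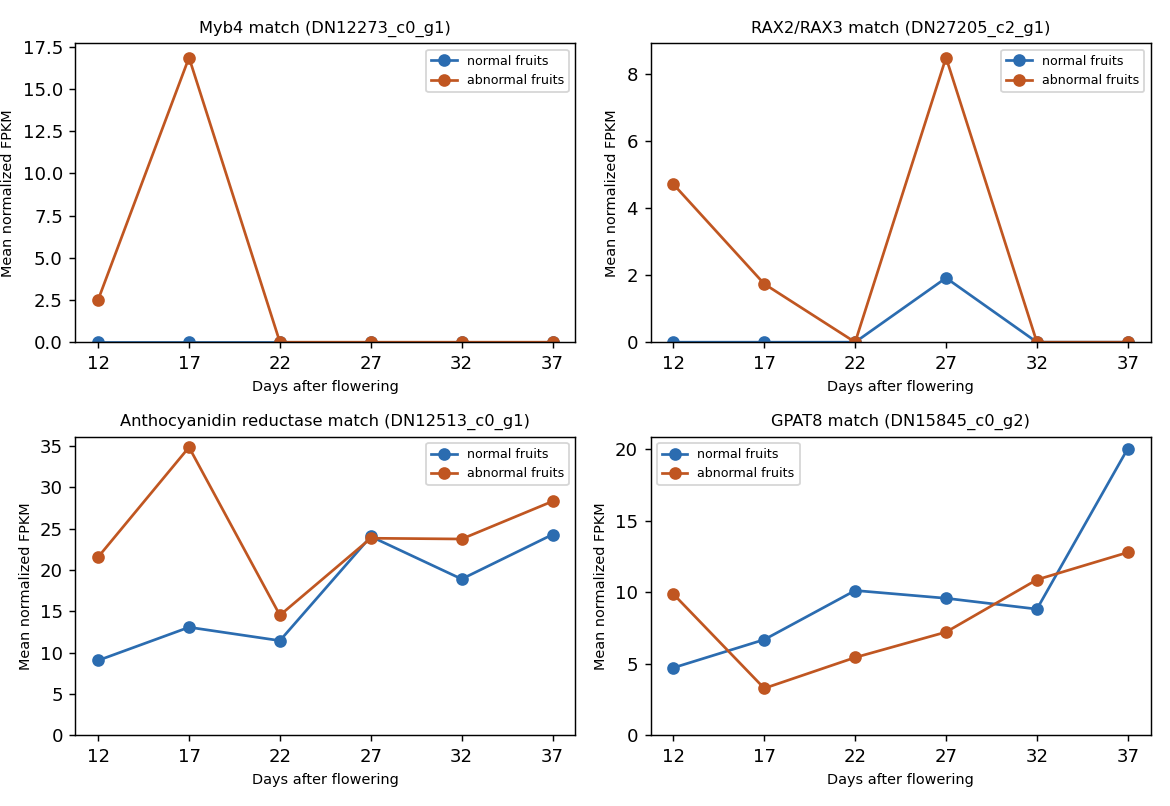
Mean normalized FPKM against days after flowering in normal (blue) and abnormal (orange) fruits for 4 listed unigenes of the name lists, namely those matching Myb4, RAX2 and RAX3, anthocyanidin reductase, and glycerol-3-phosphate acyltransferase 8 (GPAT8). The Myb4 match and anthocyanidin reductase are highest in abnormal fruits on day 17 (16.9 and 34.9 FPKM), and the GPAT8 match is lowest there (3.29 FPKM).

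A search by enzyme names of suberin, cutin or wax chain synthesis took in 6 unigenes. They include DN14080_c0_g1, a 1-acyl-sn-glycerol-3-phosphate acyltransferase 2 matched by part of its name only, which is not listed. The 1 listed is DN15845_c0_g2, whose best match is GPAT8, an acyltransferase of cutin synthesis in Arabidopsis. It had 4.73, 6.70, 10.1, 9.59, 8.83 and 20.05 FPKM in normal fruits from day 12 to day 37. In abnormal fruits it had 9.88, 3.29, 5.45, 7.22, 10.9 and 12.8 FPKM. Its log2 differences ran from −0.84 on day 17 to 0.92 on day 12, and none was past the fold, although with a pseudocount of 0.1 those on days 12 and 17 were. Like the Myb-like unigene, it was lowest in abnormal fruits on day 17, and the r between the 2 was 0.85 over the 12 groups, against −0.07 with MYB39. Of 3 unigenes named for photosynthetic proteins, searched for as possible markers of green fruit tissue, 2 are listed, at no more than 2.82 FPKM. On day 17 both were listed at 0 in abnormal fruits. In normal fruits a chlorophyll a-b binding protein (DN12540_c0_g1) had 2.19 FPKM there, a log2 difference of −1.67 and past the fold, and a photosystem I subunit (DN12440_c0_g1) had 0.783 FPKM, a difference of −0.83. Their summed level was 4.73 FPKM in normal against 4.47 in abnormal fruits on day 12 and 2.98 FPKM against 0 on day 17. On day 22 the sum was 0 in normal fruits and 0.508 FPKM in abnormal ones, and from day 27 on both were at 0 in either fruit type. Since both were at 0 in normal fruits too from day 22 on, their levels are no measure of the amount of green tissue here. Their part in the results on MYB39 and the Myb-like unigene was not tested.

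As a measure of likeness, the Pearson r of log2(FPKM + 1) over the 12 groups was taken against each of 5891 listed unigenes whose mean was 1 FPKM or more. With MYB39, 7 unigenes reached an r of 0.9, and with the Myb-like unigene 47 did. The 5 most like MYB39 had an r between 0.90 and 0.95. DN22636_c0_g1 was first, with 8.49 and 21.9 FPKM on day 12 and 6.98 and 20.1 FPKM on day 17 in normal and abnormal fruits, and then came DN25136_c5_g7 (r = 0.91). All 5 were higher past the fold in abnormal fruits on day 12 and on day 17, and none was past the fold at the later stages, a course that 3.82% of all listed unigenes had. They were chosen for their likeness to MYB39 over these same groups, so this follows from the choice and is no result of its own. Their log2 differences on days 12 and 17 lay between 1.02 and 2.73, below those of MYB39. The 5 most like the Myb-like unigene had an r between 0.96 and 0.99, led by DN25555_c0_g5 (0.99) and DN25602_c2_g3 (0.98). DN25555_c0_g5 had 16.4 FPKM in normal fruits on day 12 and 36.9 on day 37, and 14.8 FPKM in abnormal fruits on day 17 and 40.4 on day 37. On day 17 the differences of these 5 lay between −0.68 and −0.33, none past the fold, and their course too was fixed by the choice. None of the 10 carries a name in the annotation used here, and all values share the same 12 groups and the same normalization.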

How the data were processed

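Fruits of 12 groups (normal and abnormal, 6 stages, 3 replicates each, 36 samples) were analysed, with groups taken from the sample labels and column names. Per the methods, trimmed reads were assembled into unigenes (Trinity) and mapped back to these (Bowtie2). The authors took RSEM estimates of reads per unigene, normalized them in DESeq2 and divided them by effective length and library size. Versions of these tools are not given in the sources used here. The files hold the resulting FPKM, deposited by the authors as the mean of each group over its replicates. Depth per unigene is unknown, so no interval or detection limit was computed.

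The members and name lists were chosen with earlier results of these data known. Differences were taken in log2(FPKM + 1), and a size over 1, the fold threshold of the methods, was counted against all 8676 listed unigenes. A pseudocount understates changes of weakly expressed unigenes. Names came from the parts used here of the study's annotation tables, and primers from its primer table. The reverse primers were not used because their orientation could not be settled. Unigenes named in the text are both members, those of the DN26519 cluster, those of the name lists, and the 5 most like each member, of which the first 2 are given by ID. Alternatives were pseudocounts of 0.1 and 5, scaling by column totals or by median of ratios, a doubled log2 threshold of 2, minimum highest values of 1 and 5 FPKM, Spearman's rho and a minimum mean of 10 FPKM. The minimum highest value of 1 FPKM left every share and count unchanged, so it shows nothing about how the results depend on weak unigenes. Sums over the DN26519 unigenes and differences without a pseudocount were added after the data had been seen. Counting and likeness were tested on simulated data, with changes planted only in unigenes with a mean over 5 FPKM, so weakly expressed ones were not covered. Scaling was tested on the deposited values with a column multiplied by a constant, which median of ratios removes by construction. Python 3.11.15, numpy 2.4.6, pandas 2.3.3, scipy 1.17.1 and matplotlib 3.10.9 were used.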

Additional observations from a re-analysis of the deposited data

Results flagged for a closer look

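The 2 fruit types, or 2 stages, went opposite ways by more than 1 in log2(FPKM + 1) in 4 cases. None of these differences was tested, since each rests on 1 mean per group. From day 12 to day 17, MYB39 changed by −0.45 in normal and by 0.82 in abnormal fruits, a gap of 1.26. From day 17 to day 22 it changed by 0.72 in normal and by −3.58 in abnormal fruits, a gap of −4.30. The Myb-like unigene changed by 0.67 in normal and by −0.73 in abnormal fruits from day 12 to day 17, a gap of −1.40. Its difference between fruit types went from 0.29 on day 12 to −1.12 on day 17, which is a gap of −1.40 as well.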

How the results depend on the processing

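No paired analysis was possible because the columns are group means with no values per replicate, and leaving out replicates was not run for the same reason. Limits common to all values are the single mean per group, the unknown depth and the doubt about how reads were divided within DN26519. Of 224 values of both unigenes under alternatives, 178 kept both their direction and their side of the fold, and 9 turned direction, 7 in the sum with DN26519_c2_g2 and 2 in the sum over 3 unigenes. The threshold of 2 leaves every value unchanged, so it could not turn a direction, and 25 of the 178 came from it. Over pseudocounts and scalings the difference of MYB39 lay between 1.72 and 4.53 on day 12 and between 2.51 and 7.26 on day 17, and that of the Myb-like unigene on day 17 between −1.26 and −0.77. The cause of the changes below was not tested beyond what each setting does by construction.

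Summing with DN26519_c2_g2 and leaving out the pseudocount were chosen after seeing the data. The sum with DN26519_c2_g2 turned the difference between fruit types to −0.36 on day 17, −1.15 on day 27 and −0.58 on day 37, and gave 0.32 on day 12. It also turned the normal steps from day 12 to 17 (1.46) and 17 to 22 (−1.75) and the abnormal steps from day 22 to 27 (−0.66) and 27 to 32 (0.35), and gave 0.98 (normal, 22 to 27) and −0.91 (abnormal, 17 to 22) in the same direction as before. The sum over 3 unigenes turned the first 2 normal steps (0.90 and −0.81), and gave 0.46 on day 12, 0.42 on day 17, a last normal step of 0.88 and an abnormal step of −1.36 (27 to 32) in unchanged direction.

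With a pseudocount of 0.1 and with none, MYB39 differed by 1.27 and 1.37 on day 32. Its first normal step was −1.40 and −1.87, its second 1.96 and 2.52, and its last abnormal steps −1.07 and −1.10, then 1.17 and 1.21. The abnormal step of the Myb-like unigene from day 17 to day 22 was 1.02 and 1.03, and 1.06 with equal totals. With a pseudocount of 5, the last 3 normal steps of MYB39 were 0.52, −0.54 and 0.58, its abnormal step to day 27 was 0.63, and the Myb-like difference on day 17 was −0.77. Median of ratios gave 0.91 and −0.96 for MYB39 in normal fruits to days 27 and 32, and −0.97 (day 17) and 0.97 (last normal step) for the Myb-like unigene. Equal totals gave 0.94 for MYB39 to day 27. Against a threshold of 2, the normal steps of MYB39 of 1.22, −1.31 and 1.38, its abnormal step of 1.37, and the Myb-like values of −1.12, 1.15 and 1.31 were no longer past it.

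The share of listed unigenes past the fold in either direction was 15.1%, 23.6%, 7.46%, 8.77%, 5.86% and 6.18% from day 12 to day 37 with a pseudocount of 5, and 32.7%, 24.3% and 22% on days 22, 32 and 37 with 0.1. Of the MYB-annotated unigenes 0 were past it on day 12 and 1 on day 17 with a pseudocount of 5. Of the flavonoid unigenes 2 and 3 were past it with 0.1 on days 12 and 17, 0 on day 12 with 5, and 2 on day 17 with either scaling. The GPAT8 match, 1 unigene, was past it on days 12 and 17 with 0.1 and on day 12 with equal totals. By Spearman's rho 1 of the 5 unigenes most like MYB39 and 3 of the 5 most like the Myb-like unigene stayed among the first 5, and 4 and 3 with a mean of at least 10 FPKM.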
